A study of Mus musculus with 12 samples.

Results

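The arrays described here are the 4 wild-type arrays, labelled as normal colorectal tissue, of a series of 12. They were chosen by that label alone. The other 8 arrays come from mice that carry an Apc mutation, from normal tissue and from polyps, and were not used, so no comparison with mutant tissue is made. The 4 mice were wild-type females of the strain C57BL/6N, 14 weeks old, kept on CE-2 chow under a 12 h light cycle and given no treatment that the labels name. Their titles carry the numbers 102, 104, 105 and 108, which are used below as the names of the arrays, and each array is taken as 1 mouse. The labels give the tissue as colorectum and do not say from which stretch of the large intestine a piece came, which layers of the wall it held or whether animals were pooled. With 1 group there is nothing to test between groups, so the values below are descriptions: levels with their SD over 4 arrays, counts, and the share of all genes that the same count gives.

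The colon is lined by a single layer of epithelium folded into crypts. Stem cells at the crypt base renew it, absorptive colonocytes take up salt, water and the short-chain fatty acids that bacteria make, and goblet cells secrete the mucus that keeps those bacteria away from the wall. Enteroendocrine cells release gut hormones and tuft cells sense luminal signals. Below the epithelium lie fibroblasts, vessels and immune cells, and around them the smooth muscle with the enteric nerve plexus. Unlike the small intestine, the mouse colon has no Paneth cells and absorbs little fat or sugar.

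Each array held 43020 spots for genes, of which 65.4%, 67.8%, 66.8% and 71.0% were well above background on arrays 102, 104, 105 and 108, by the flag that the scanner software sets. No spot was saturated. Arrays carry no count of molecules, so precision here rests on their number and on repeated spots: for 399 probes printed 10 times, the median SD within an array was 0.056 to 0.065 on the log2 scale. A level is log2 of the background-subtracted signal minus the 75th percentile of the array's probes, a percentile that lay between 1467 and 1691 signal units, so a gene at level 0 is as bright as the probe at that percentile. In bulk tissue, fewer cells of a type and less RNA per cell cannot be told apart. Xist, the RNA of the inactive X chromosome, was well above background on all 4 arrays, and Ddx3y, Eif2s3y, Kdm5d and Uty, on the Y chromosome, on none, which is the pattern of female mice. All 4 arrays lay on 1 slide, so array, mouse and position on the slide cannot be told apart.

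Of 30340 genes and transcripts, 18939 (62.4%) were detected, meaning that the brightest probe of the gene passed the background flag on each of the 4 arrays, and 8375 (27.6%) were above background on none. Between these, 1476 genes were above background on 1 array, 649 on 2 and 879 on 3. Array 108 alone accounted for 943 of the genes seen on a single array (3.11% of all genes), against 204 on array 102 (0.672%), 165 on 104 (0.544%) and 164 on 105 (0.541%). The lowest level that passed the flag was -5.63, -6.00, -5.74 and -6.28 on arrays 102, 104, 105 and 108. The flag thus passed dimmer levels on array 108, and its part in these counts was not tested. Signal was concentrated in few genes: the 10 brightest held 2.07% ± 0.048 of the summed signal (mean ± SD over 4 arrays), the 100 brightest 14.9% ± 0.24 and the 1000 brightest 62.9% ± 0.31. Across detected genes, which are not independent replicates, levels on any 2 arrays correlated with r = 0.978 to 0.992.

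Genes were ranked by their mean level. This is an order of array signal and not of RNA copies, because probes differ in brightness. Genes of the secretory and absorptive epithelium, of the mitochondrial respiratory chain and of the ribosome filled most of the 30 brightest places among named genes, and their levels lay within 7.73 to 8.29 with SDs of 0.036 to 0.19. The brightest was COX1, a mitochondrially encoded subunit of cytochrome c oxidase, at 8.30, 8.27, 8.21 and 8.38 on arrays 102, 104, 105 and 108. Next came Lgals4, a galectin of the gut epithelium, at 8.13, 8.14, 8.17 and 8.31, on the same arrays. Zg16, a lectin of colonic mucus that binds bacteria, was at 8.14, 8.19, 7.99 and 8.31. For these genes the 4 arrays differed by less than 0.4 on the log2 scale.

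Of mucus and barrier genes the top 30 also held Clca1, a goblet cell protease of the mucus layer (8.0 ± 0.14, mean ± SD, n = 4), Muc13, a membrane mucin (7.93 ± 0.083), Lypd8, which binds flagellated bacteria (7.90 ± 0.097), Dmbt1, a scavenger receptor-like mucosal protein (7.73 ± 0.12), and Sprr2a2, a small proline-rich protein (7.91 ± 0.11). The epithelial keratin Krt8 stood at 7.90 ± 0.11 and Ckmt1, a mitochondrial creatine kinase, at 8.09 ± 0.10. The respiratory chain was present with COX1, CYTB (8.03 ± 0.10), COX2 (7.81 ± 0.097), COX3 (7.73 ± 0.093) and the nuclear-encoded Cox6a1 (7.92 ± 0.044). The ribosome was present with Rpl41, Fau, Rpl37a, Rps14 and Rpl10, at 7.75 to 7.91. Housekeeping genes were Actb, the cytoplasmic actin (7.91 ± 0.072), Ppia, a prolyl isomerase (7.89 ± 0.074), and Tpt1, the translationally controlled tumour protein (7.86 ± 0.044). Prdx6, a peroxiredoxin (7.82 ± 0.19), had the largest SD of the 30, with array 102 highest at 8.09. Crip1, a LIM-domain protein (7.88 ± 0.085), and Sycn, the zymogen granule protein syncollin (8.01 ± 0.17), were in the same range.

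A single probe decides such a place. Of the 30 genes 13 have another probe on the array, and for 3 of those the next probe read more than 4 lower on the log2 scale: Glrx2, a glutaredoxin, at 7.84 ± 0.094 and 0.78 ± 0.16, Zfp628, a zinc finger gene, at 7.74 ± 0.083 and -0.73 ± 0.18, and Elk1, a transcription factor, at 7.73 ± 0.047 and -6.27 ± 0.61, this last probe above background on 1 array. The ranks of these 3 genes hold for the bright probe alone. Exosc2, a subunit of the RNA exosome (8.06 ± 0.062), has no further probe to set beside it. When probes of a gene were averaged, 70 of the 100 brightest genes were shared with the ranking by the brightest probe.

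**Figure D1:**
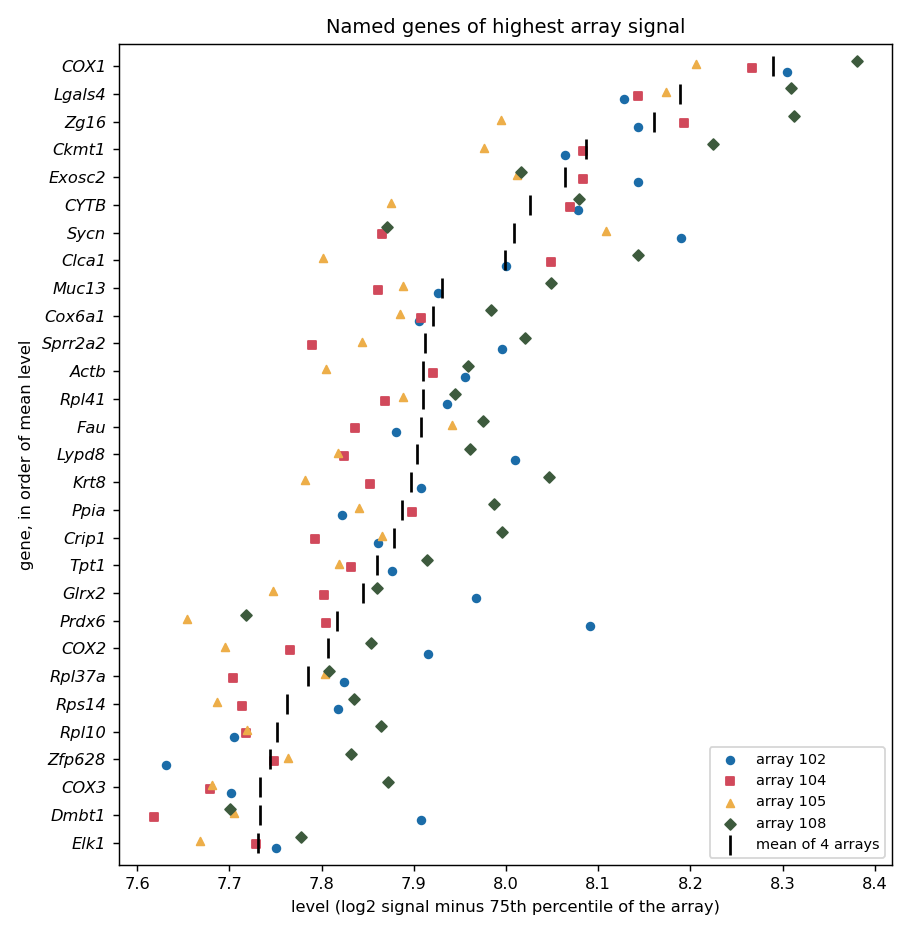
Levels of 29 of the 30 named genes with the highest mean signal in wild-type colorectal tissue, in order of mean level. The x axis is the level (log2 signal minus the array's 75th percentile), each symbol is 1 array and the black tick is the mean of 4. The axis spans less than 1 log2 unit, from COX1 with a mean of 8.29 down to Elk1 with 7.73, and the widest spread is that of Prdx6, with array 102 apart from the other 3.

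Cell types were read from lists of marker genes. Epithelial lists were the brightest. All 14 markers of epithelium in general were detected, where 62.4% of all genes were, and the median member lay at percentile 97.0 of all genes by level. Epcam and Cdh1, the adhesion molecules that define epithelial cells, stood at 3.87 ± 0.17 and 3.86 ± 0.29. The intestinal transcription factor Cdx2 varied most within the list, at 0.86, 1.91, 0.72 and 1.17, where array 104 was the highest. Of the 14 markers 13 were lowest on array 105, where 27.1% of all detected genes were lowest. With quantile normalization 11 were lowest there, and with normexp correction and quantile normalization 10.

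Absorptive colonocyte markers were detected in 15 of 16 cases, with the median at percentile 97.2. Car1, the carbonic anhydrase of colonocytes, was at 7.07, 7.02, 7.07 and 7.26. Slc26a3, the chloride and bicarbonate exchanger of the colonic surface, was at 4.63, 4.82, 4.98 and 5.61 and highest on array 108. The water channel Aqp8 (7.23 ± 0.11), the mucin Muc3 (7.57 ± 0.17) and the guanylin precursor Guca2a (7.34 ± 0.42), a peptide that sets chloride secretion, were among the brightest members. Tmigd1, a membrane protein of mature enterocytes, was the most variable at -2.54, -0.17, -2.98 and -1.15, and the bile acid exporter Slc51a was above background on 3 arrays.

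Goblet cells had the brightest list, with 14 of 14 markers detected and the median at percentile 99. The secreted mucin Muc2 was at 6.09, 6.57, 6.03 and 6.65, Fcgbp, which is cross-linked into mucus, at 7.31 ± 0.29, Tff3, a trefoil peptide, at 7.35 ± 0.21, and Klk1, a kallikrein, at 7.25 ± 0.11. The factors that direct secretory fate, Spdef and Atoh1, were at 3.24 ± 0.30 and 2.46 ± 0.22. Of the 14 detected markers 10 were highest on array 108, where 30.8% of all detected genes were highest. On array 105, 12 were lowest, where 27.1% of all detected genes were lowest. With normexp correction and quantile normalization 7 of 14 were highest on array 108 and 9 lowest on array 105. With quantile normalization alone 9 were lowest on array 105. The spread was small for most members, with a median SD of 0.22, and Retnlb, described below, stood outside it with an SD of 3.71.

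Stem and crypt base markers were detected in 11 of 12 cases at a median percentile of 71.9. Lgr5, the receptor that marks cycling stem cells, was at -1.65, -1.38, -0.91 and -1.56. Ascl2, a transcription factor of the same cells, was at 1.39, 1.52, 1.92 and 1.62. For both, array 105 was the highest. Reg4, a lectin of deep crypt secretory cells of the colon (4.67 ± 0.27), and Myb, a proliferation factor (2.64 ± 0.085), were the brightest members. Olfm4, a stem cell marker of the small intestine that the mouse colon lacks, was above background on no array.

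Hormone-producing cells were visible with 11 of 12 markers. Insl5, a hormone made by L cells of the distal gut, was at 4.85 ± 0.16, Pyy, the satiety peptide, at 4.86 ± 0.14, and the granins Chga and Chgb at 3.0 ± 0.13 and 4.05 ± 0.24. Sst, somatostatin, varied most, at -0.42, 0.54, 0.28 and 1.38. Tuft cell markers were dimmer, with 9 of 11 detected. Dclk1, the kinase that marks them, was at -2.59, -2.55, -2.54 and -3.13. The cation channel Trpm5 was at -3.36, -2.38, -3.51 and -1.86, higher on arrays 104 and 108 than on 102 and 105. Ptgs1 and Alox5ap, enzymes of eicosanoid synthesis that other cells share, were the brightest of this list at 0.71 ± 0.33 and -0.28 ± 0.19.

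The muscle coat was represented. All 12 smooth muscle markers were detected, at a median percentile of 94.7, led by Tagln (7.19 ± 0.21), Acta2 (6.81 ± 0.30) and Actg2 (6.67 ± 0.20), which encode transgelin and the vascular and enteric smooth muscle actins. Of the 12, 11 were highest on array 105, where 22.9% of all detected genes were highest. The mean of the 12 members was 3.82, 3.75, 4.22 and 3.82 on arrays 102, 104, 105 and 108. Acta2 illustrates the size, at 6.65, 6.64, 7.26 and 6.69. The exception was Lmod1, leiomodin, at -4.15, -3.80, -4.70 and -4.82. Ano1 and Kit, the channel and the receptor that define the pacemaker cells of Cajal, were at 4.82 ± 0.13 and 0.95 ± 0.33, although Ano1 is also made by epithelial cells.

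Enteric neurons gave 12 of 13 markers. Elavl4, an RNA-binding protein of neurons, was at -2.34, -2.02, -1.60 and -1.23. Uchl1, a neuronal ubiquitin hydrolase, was at -1.89, -1.82, -1.41 and -0.97. For both, array 102 was the lowest and array 108 the highest, and the same held for most of the list: 11 of the 12 detected members were highest on array 108 and 11 were lowest on array 102, where 27.5% of all detected genes were lowest. The mean of the 12 was -1.13, -0.88, -0.53 and -0.087. Among the 10 of them whose probe had under 50% GC, 9 were highest on array 108. That value is given because of probes of 60% GC or more. In the median these read low on array 102 and high on array 108, as described below. The lowest array was not counted for these 10. From 50 to 55% and from 55 to 60% GC the medians of array 102 were -0.0045 and -0.014. The brightest members were Snap25, a protein of synaptic vesicle fusion, at 5.20, 5.30, 5.40 and 6.01, and Tac1, the precursor of substance P (1.90 ± 0.73). Of 7 glial markers 5 were detected, among them the calcium-binding protein S100b (-1.69 ± 0.32). Of the 5, 4 were highest on array 105, where 22.9% of all detected genes were highest.

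All 13 fibroblast and matrix markers were detected, at a median percentile of 88.4, and all 13 were lowest on array 108, where 23.6% of all detected genes were lowest. Col1a1, a chain of type I collagen, was at 1.38, 1.47, 1.08 and -0.0034. Col1a2, the other chain of that collagen, was at 4.18, 4.18, 4.01 and 2.82. Dcn, the proteoglycan decorin, was at 5.95, 5.79, 6.20 and 5.47. Arrays 102, 104 and 105 lay within 0.5 of each other for these genes and array 108 below them. Pi16, a marker of adventitial fibroblasts, varied most, at 0.12, -0.45, 0.25 and -1.69. Endothelial markers were detected in 12 of 12 cases at a median percentile of 57.6, with Pecam1, an adhesion molecule of vessels, at -1.68 ± 0.27. Cdh5, the cadherin of endothelial junctions, was at -2.28, -2.04, -2.13 and -3.06, and 8 of the 12 were lowest on array 108.

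Of 12 macrophage and dendritic cell markers 11 were detected. Of the 11, 9 were lowest on array 108, where 23.6% of all detected genes were lowest. Csf1r, the receptor that sustains macrophages, was at 3.09, 3.34, 3.23 and 2.29. Cd68, a lysosomal protein, was at 1.15, 1.12, 1.16 and -0.017. T and NK cells gave 12 of 16 markers. Cd3e and Cd3d, chains of the T cell receptor complex, were at -0.81 ± 0.13 and -3.12 ± 0.31, and Cd8a, the coreceptor of cytotoxic T cells, was above background on no array. B and plasma cells gave 13 of 15. Jchain, which joins secreted IgA, was the brightest of these at 4.79, 5.29, 4.94 and 5.16 with the arrays within 0.5 of each other, while the markers of mature B cells differed between arrays, as described below.

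Mast cells gave 5 of 8 markers, with Mcpt1, a mucosal mast cell protease, at -3.66, -3.68, -4.42 and -2.12 and array 108 above the other 3. Eosinophils gave 3 of 4, with Prg2 at -3.98 ± 0.32 and Epx, their peroxidase, on no array. Neutrophils gave 6 of 11, of which Csf3r (4.83 ± 0.12) and Elane (0.066 ± 0.23) were the brightest although S100a8 and S100a9, the abundant calprotectin genes of neutrophils, were at -5.01 ± 0.89 and -3.12 ± 1.02. Haemoglobin, from blood in the tissue, was measured with Hba-a1 at 3.30, 2.74, 2.97 and 2.29. Of 6 detected red cell markers 5 were highest on array 102, where 31.0% of all detected genes were highest.

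Markers of tissues other than colon were mostly dim, though some members were brighter. Median levels were -5.51 for small intestinal enterocytes, -5.49 for Paneth cells, -5.01 for squamous epithelium, -5.47 for skeletal muscle and -3.11 for liver. The brightest detected members of these lists stood at 1.04, 1.49, 2.20, 1.49 and 2.11, in that order. The liver median was close to the -2.85 of T and NK cells and the -2.79 of B and plasma cells. Of all genes, 62.4% were detected. Of the small intestinal enterocyte markers 6 of 12 were detected and 5 were above background on no array: Lct (lactase), Apoa1 and Apoa4 (apolipoproteins of fat absorption), Fabp1 (a fatty acid carrier) and Slc2a2 (a sugar transporter). Sis, sucrase-isomaltase, was at -4.80 ± 0.42. Of the Paneth cell markers found on the array 2 of 6 were detected, namely Lyz1 (1.49 ± 0.41) and Itln1 (-0.91 ± 0.64), which other mucosal cells also make, and the defensins Defa21 and Defa26 were above background on no array. Squamous markers of the anal canal gave 6 of 12, with Krt5 and Krt14, keratins of the basal layer, at -4.42 ± 0.25 and -1.94 ± 0.33. Krt13 was at 0.48, 0.34, 0.26 and 0.93. Skeletal muscle gave 4 of 8, with the fast myosins Myh1 and Myh4 on no array. Liver gave 4 of 6, with Alb, albumin, at -3.55, -2.68, -3.19 and -2.84. Mesothelium, the outer lining of the gut wall, gave 5 of 5, among them Msln at -0.45 ± 0.46 and Wt1 at -4.11, -5.06, -3.88 and -3.35, and 4 of the 5 were lowest on array 104, where 21.8% of all detected genes were lowest.

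**Figure D2:**
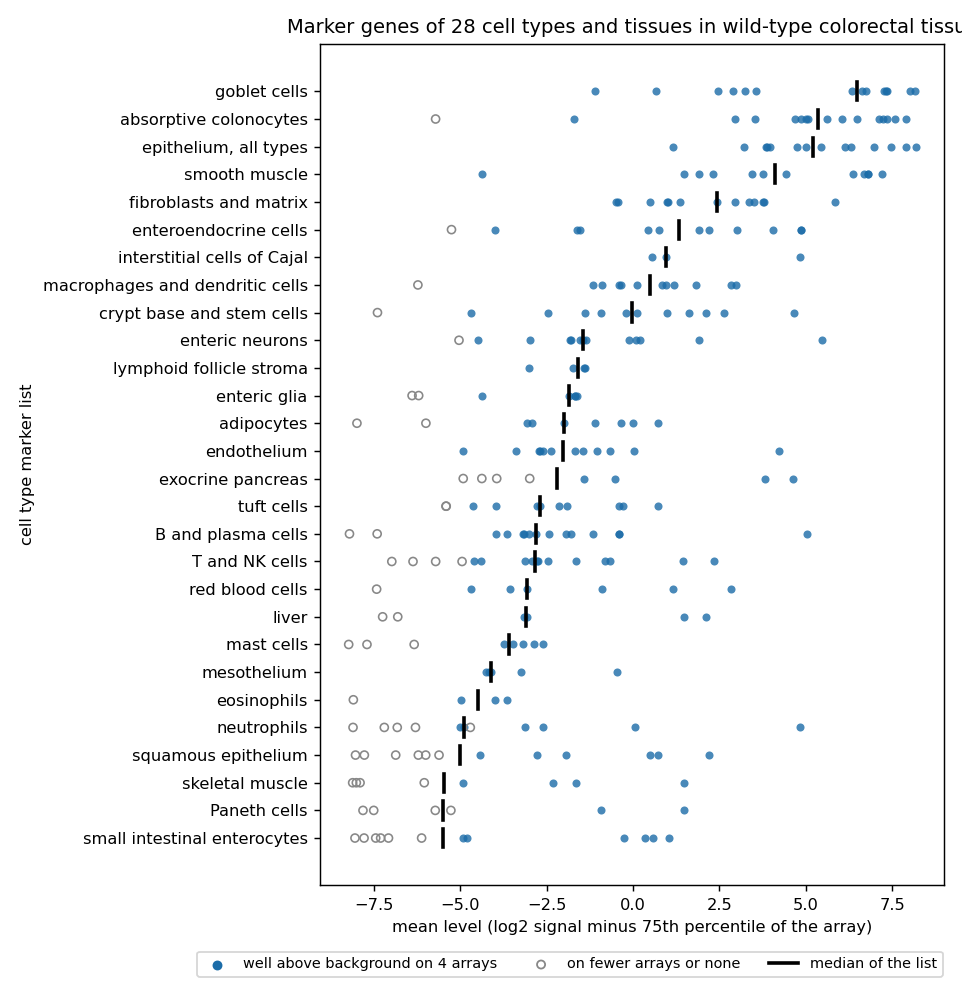
Mean levels of marker genes for 28 cell types and tissues, with lists ordered by their median. Each point is 1 gene, filled where the gene was detected on 4 arrays and open otherwise, and the bar is the list's median. Goblet cell, colonocyte and general epithelial markers lie highest, with medians of 6.47, 5.34 and 5.21, and small intestinal enterocyte and Paneth cell markers lowest, at -5.51 and -5.49.

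Genes were next described by function. Of 22 genes of electrolyte and water transport 21 were detected, at a median percentile of 92.5. Slc9a2, a sodium and hydrogen exchanger, was at 2.70, 2.34, 2.08 and 2.30. Slc9a3, the exchanger of the surface epithelium that carries much of its sodium uptake, was at 2.22, 4.10, 1.55 and 3.89, and the water channel Aqp4 at 2.22, 4.43, 2.60 and 4.27. Slc9a3 and Aqp4 were each higher on arrays 104 and 108 than on 102 and 105. The sodium channel subunits differed, with Scnn1a at 3.34 ± 0.33 and Scnn1g above background on no array. Cftr, the chloride channel of secretion, was at -2.34 ± 0.33, and Best2, an anion channel of colonic goblet cells, at 4.17 ± 0.19.

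All 10 genes of butyrate use and ketone body synthesis were detected, at a median percentile of 91.5. Acsm3, a medium-chain acyl-CoA synthetase, was at 4.10 ± 0.16, Hadh, an enzyme of beta-oxidation, at 3.68 ± 0.13, and Slc16a1, a carrier of lactate and butyrate, at -3.22 ± 0.16. Of 17 genes of drug and toxin metabolism 15 were detected, with Ces2c, a carboxylesterase (6.09 ± 0.088), and Sult1a1, a sulfotransferase (5.48 ± 0.18), the brightest. Cyp2c55, a cytochrome of the colon, was at 4.92, 4.64, 5.08 and 4.06, and Cyp1a1, which ligands of the aryl hydrocarbon receptor induce, was above background on no array. The 15 nuclear genes of the respiratory chain were all detected, at a median percentile of 97.4. Their median SD was 0.11, against 0.18 over all detected genes, which include dimmer ones. Of the 84 cytosolic ribosomal protein genes on the array, a list made after the values were seen, 81 were detected. Their median percentile was 99.1 and their median SD 0.067. Neither list was compared with other genes of like level.

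Defence genes of the epithelium ranged over the whole scale. Pigr, which carries IgA into the lumen, was at 6.23, 6.39, 6.03 and 6.10. Saa1, a serum amyloid A gene, was at 7.64, 7.62, 7.64 and 7.90. Its neighbour Saa2, close to it in sequence, was at 6.51, 5.96, 5.28 and 5.24, so that array 102 was highest for Saa2 and array 108 for Saa1. The antibacterial lectins of the small intestine were low: Reg3g was at -3.93, -5.52, -5.26 and -4.54 and Reg3b was above background on array 108 alone. Duox2, the epithelial oxidase that makes hydrogen peroxide, was at -2.12, -1.04, -1.31 and -0.44. Its maturation factor Duoxa2 was at -0.094, 0.91, 0.43 and 0.48, and array 102 was the lowest for both. The inducible nitric oxide synthase Nos2 was highest on array 104, at -1.73, 0.18, -1.08 and -1.84.

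Cell cycle genes were detected in 14 of 15 cases at a median percentile of 76.8. Mki67, the proliferation antigen, was at 2.58, 2.58, 2.93 and 2.22. Top2a, a topoisomerase of dividing cells, was at -0.16, -0.20, 0.29 and -0.37. Of the 14, 9 were highest on array 105, where 22.9% of all detected genes were highest, and 7 lowest on array 108, where 23.6% were lowest. Of 11 detected immediate early genes, which respond within minutes to handling or signals, 6 were highest on array 102 and 5 on array 104. Of all detected genes, 31.0% were highest on array 102 and 15.3% on array 104. Fos was at 1.65, 2.51, 1.21 and 1.91. Jun, its partner in the AP-1 factor, was at 3.53, 3.14, 2.54 and 2.72. Fosb varied most, at -3.03, -1.32, -2.68 and -1.80. Of 7 heat shock genes 6 were highest on array 104, with the inducible chaperone gene Hspa1a at -1.45, -1.06, -2.18 and -2.19, higher on arrays 102 and 104 than on 105 and 108. Dnajb1, its co-chaperone, was at 3.62, 4.22, 3.65 and 3.59.

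Clock genes were detected in 14 of 16 cases. Dbp, an output gene of the clock with a large daily swing in most tissues, was at 4.28, 3.93, 3.58 and 4.68. The period gene Per1 was at 1.19, 1.83, 1.21 and 2.23. Its relative Per2 was at -2.61, -1.97, -2.97 and -1.83. Of the 14, 9 were highest on array 108, against 30.8% of all detected genes. With each array scaled to its median, arrays 102 and 108 were each highest for 7. Ciart, a clock repressor, had the largest SD of this list, at -2.55, -2.77, -4.90 and -2.04, with array 105 below the other 3. The time of day at which tissue was taken is not given in the labels.

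Of 14 interferon-response genes all were detected, and 8 were highest on array 108, where 30.8% of all detected genes were highest. Isg15, a ubiquitin-like protein that interferon induces, was at 0.92, 1.29, 0.40 and 1.29. Of 7 genes of MHC class II presentation 6 were detected. All 6 were lowest on array 108, where 23.6% of all detected genes were lowest. Cd74, the invariant chain, was at 3.47, 3.24, 2.76 and 2.25. H2-Ab1, a chain of the class II molecule itself, was at 4.20, 4.20, 3.83 and 3.49. These genes thus share their lowest array with the macrophage and matrix genes given above.

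Variation among the 4 mice was small for most genes. The SD of a gene's level over the 4 arrays had a median of 0.18 among detected genes and was under 0.2 for 55.8% of them, against a median of 0.056 to 0.065 for repeated spots of 1 probe within an array. The SD was 1 or more for 300 genes (1.58%), of which 187 have gene names and 113 clone names, and 2 or more for 29. The steadiest named genes among the brighter genes were Ap2m1, a clathrin adaptor subunit (4.43 ± 0.0046), Chtop, an mRNA export factor (2.67 ± 0.007), Pagr1a (2.93 ± 0.012), Cdc42ep4 (2.59 ± 0.012) and Milr1 (7.54 ± 0.012). They were picked as the smallest SDs among the bright genes, 0.0046 to 0.012, and these values move with the scaling: that of Ap2m1 was 0.049 with each array scaled to its median and 0.10 with normexp and quantile normalization.

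The variable genes were sorted by the pattern over the 4 arrays, splitting the arrays at the widest gap. Among the 300, 143 were low on array 102, 33 high on array 102, 21 high on arrays 104 and 108, 20 high on array 104, 19 high on array 108, 16 low on array 108, 15 high on arrays 102 and 104, 12 high on arrays 102 and 105, 11 high on array 105, and 10 had other patterns. These groups were chosen by their spread, so their sizes carry no test. The first component of the differences, 57.1% of the variance over detected genes, set array 102 against array 108, the second (24.5%) array 105 against 108, and the third (18.4%) array 104 against the rest.

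**Figure D3:**
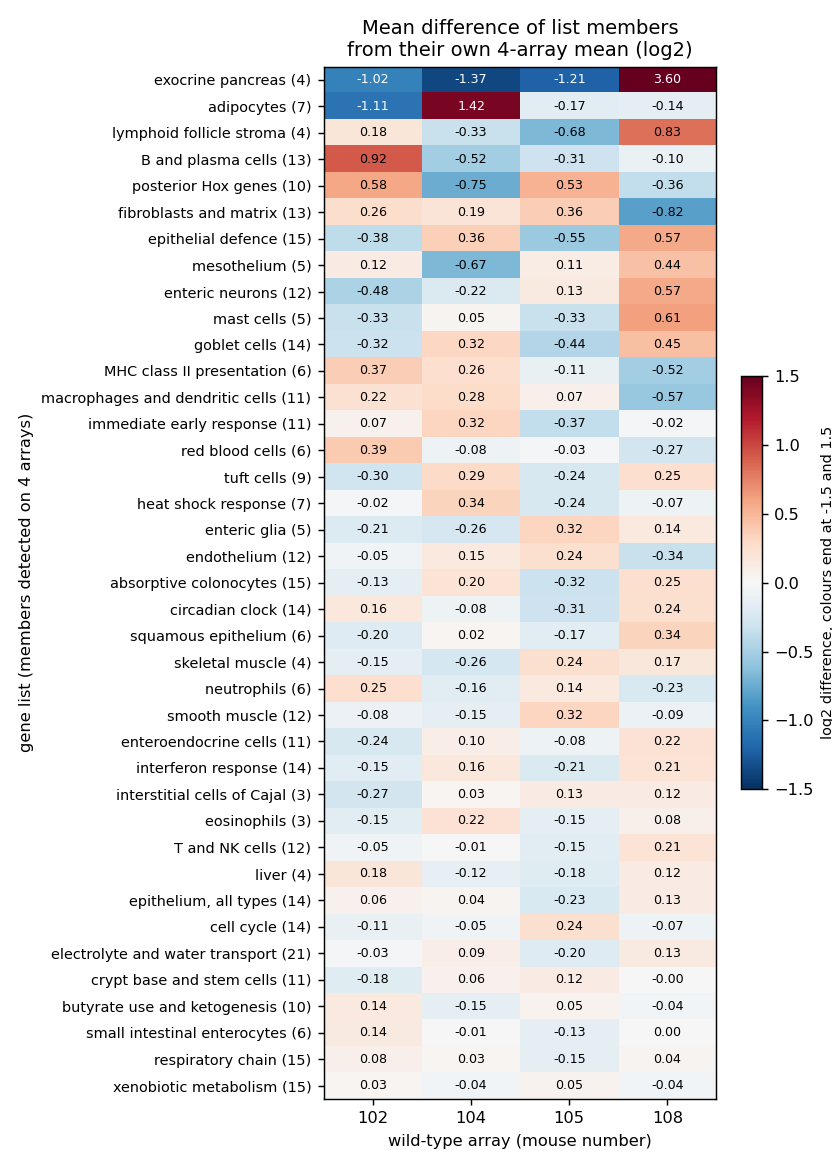
Mean log2 difference of each list's detected members from their own mean over the 4 arrays, by array, with the lists of widest range at the top. Red is above the gene's mean and blue below. Exocrine pancreas stands at 3.60 on array 108, adipocytes at 1.42 on array 104, B and plasma cells at 0.92 on array 102 and fibroblasts at -0.82 on array 108, while drug metabolism and respiratory chain genes differ by less than 0.25 between any 2 arrays.

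The largest spread of all belonged to digestive enzymes of the exocrine pancreas, on array 108. Acinar cells of the pancreas make amylase, lipases, trypsinogens, elastases and carboxypeptidases as granule cargo, and normal colon makes few of them. Amy1, an amylase, was at -4.33, -3.72, -4.19 and 5.24 on arrays 102, 104, 105 and 108, which is 498-fold between array 108 and the next highest. Ctrb1, chymotrypsinogen, was at -2.16, -2.96, -2.93 and 5.99, a 284-fold step. Cpb1, a carboxypeptidase, was at -3.99, -4.27, -3.66 and 4.82. Cel, the bile salt-stimulated lipase, was at -3.57, -3.27, -3.47 and 4.67. On arrays 102, 104 and 105 these 4 genes lay well under level 0, and on array 108 above level 4.

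Of 25 acinar genes found on the array, 8 from the marker list and 17 added after the values were seen, 12 were detected on all 4 arrays. Of these 12, 11 were highest on array 108, where 30.8% of all detected genes were highest, and Sycn was highest on array 102. For the 11 genes the step from the next highest array to 108 ran from 1.07-fold (Cela1, an elastase that the colon also makes) to 498-fold (Amy1). Ctrl (65.6-fold), Pnliprp1 (28.9-fold), Pnliprp2 (5.16-fold), Ctrc (4.11-fold) and Clps, the cofactor of lipase (3.87-fold), lay between. A further 12 genes were well above background on array 108 and not on at least 1 of the other arrays, so that only a bound can be given, taken against the lowest signal that counts as above background where a probe was dimmer. Array 108 was at least 6090-fold higher for Amy2a5, at least 2828-fold for Try5, at least 2562-fold for Try4, at least 2095-fold for Cpa1, at least 1119-fold for Pnlip, the main pancreatic lipase, and at least 9.95-fold for Cuzd1, the smallest bound. Amylase, trypsin and elastase genes have near-identical copies, so the split between copies is uncertain. Gp2, a granule membrane protein of acinar cells that M cells of lymphoid follicles also carry, was at -1.11, -2.61, -3.92 and 2.06.

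Some genes did not share this pattern. Sycn, a granule protein known from the pancreas, was among the 30 brightest genes on every array (8.19, 7.87, 8.11 and 7.87). Ptf1a, the factor that directs acinar fate, was above background on no array. The islet is the hormone-producing part of the pancreas. Its insulin gene Ins2 was at -2.09, -1.61, -1.76 and -1.75. The other insulin gene, Ins1, was at -4.41, -2.45, -2.51 and -1.60. Array 104 was the highest for Ins2 and array 108 for Ins1, by under 1 log2 unit. Without array 108, Amy1, Ctrb1, Cpb1 and Cel had SDs of 0.32, 0.45, 0.31 and 0.15. Other values also set array 108 apart. All 13 matrix markers and all 6 MHC class II genes were lowest on it and 11 of 12 neuronal markers highest. Array 108 also had the most genes above background, by a flag that passed dimmer levels there than on the other arrays. The part of these values in this result, and that of pancreatic tissue in the piece, was not tested.

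The upstream sequences of acinar genes are shown because these members move together. The 250 bases before the start of transcription were searched for CAGGTG on both strands, an E-box of the kind that the acinar factor PTF1 contacts, and for TATAAA on both strands, the TATA box. CAGGTG was found in 11 of 19 acinar genes with an entry (57.9%), against 17.2% of 32851 mouse promoters, and TATAAA in 9 of 19 (47.4%), against 12.4%. The search started from 23 of the 25 acinar genes, as many as had a step or a bound on array 108. Of the 25, 17 were added after the values were seen, and some are near-identical copies. The shares are thus no test of enrichment. A match is a description and not a binding site. Sequences are from RefSeq, build GRCm38.p6, 5′ to 3′ on the gene's strand up to the base before the start, with matches to either motif in capitals.
Cel, chr2:28563404-28563653, minus strand: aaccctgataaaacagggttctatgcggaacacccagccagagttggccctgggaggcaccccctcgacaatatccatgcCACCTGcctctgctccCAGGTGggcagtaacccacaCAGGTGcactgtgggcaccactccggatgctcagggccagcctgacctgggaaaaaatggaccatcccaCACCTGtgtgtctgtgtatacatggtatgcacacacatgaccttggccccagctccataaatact
Cela3b, chr4:137430521-137430770, minus strand: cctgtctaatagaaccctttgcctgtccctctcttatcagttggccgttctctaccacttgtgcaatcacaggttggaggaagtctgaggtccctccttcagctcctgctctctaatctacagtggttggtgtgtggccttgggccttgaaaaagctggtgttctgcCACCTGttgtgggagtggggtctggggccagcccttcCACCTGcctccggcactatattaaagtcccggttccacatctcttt
Try4, chr6:41302022-41302271, plus strand: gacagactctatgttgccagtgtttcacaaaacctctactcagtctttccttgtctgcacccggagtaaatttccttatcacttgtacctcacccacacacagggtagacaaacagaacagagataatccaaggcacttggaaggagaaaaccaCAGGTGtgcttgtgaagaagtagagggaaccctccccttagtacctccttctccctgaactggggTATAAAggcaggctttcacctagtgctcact
Pnlip, chr19:58670115-58670364, plus strand: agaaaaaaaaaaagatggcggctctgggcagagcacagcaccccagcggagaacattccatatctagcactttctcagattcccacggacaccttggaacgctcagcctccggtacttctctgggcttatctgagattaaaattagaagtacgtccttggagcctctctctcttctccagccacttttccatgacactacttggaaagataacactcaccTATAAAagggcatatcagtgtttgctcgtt
Cel holds 4 matches to CAGGTG, the nearest starting 65 bases before the start, and Cela3b 2, at 83 and 46 bases. Try4 holds 1, at 96 bases, beside a TATAAA at 31 bases, and Pnlip holds TATAAA alone, at 30 bases.

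A second group was high on arrays 104 and 108 and low on 102 and 105. It held 21 genes of SD 1 or more, led by secreted antibacterial proteins. Retnlb, resistin-like molecule beta, which goblet cells release in response to bacteria and worms, was at -4.31, 1.38, -4.25 and 2.77 (probe at mm9 chr16:48818874-48818933). Arrays 104 and 108 were thus over 5 log2 units above both others. Ang4, an angiogenin ribonuclease with antibacterial activity made by Paneth and goblet cells, was at -0.061, 3.77, -0.35 and 5.38 (mm9 chr14:52384066-52384125).

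Ang3, a relative of Ang4, was at 0.67, 4.96, 0.77 and 6.56, and a further probe of it at -0.94, 1.36, -1.29 and 2.86. Ang2 was at -3.00, 0.23, -4.32 and 1.77. Ang, which is made in many tissues, was at 0.81, 1.77, 0.70 and 2.83. All 4 were highest on array 108 and next on 104. Angiogenin genes are close in sequence, so a probe may read more than 1 of them.

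Of transport and absorptive genes the group held Slc9a3 and Aqp4, given above, and Clca4a, a chloride channel accessory protein, at 2.34, 3.59, 1.86 and 4.32. A further probe of Aqp4 was at 1.82, 3.98, 2.07 and 3.78. A further probe of Slc9a3 was at -4.46, -2.47, -5.32 and -2.88. With both, arrays 104 and 108 again lay above 102 and 105. Isx, an intestinal homeobox factor that controls carotenoid uptake, was at -1.61, 0.48, -2.30 and 0.61. Ly6m, of the Ly6 family of membrane proteins, was at -0.49, 2.38, -0.23 and 2.27. Pla2g2a, a gene of the secreted phospholipase family read here as RNA only, was at -2.77, -0.52, -2.12 and -0.94.

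The remaining named genes of SD 1 or more in this group were Tmigd1, given above, Ccn3, Apol10a, Cpne8, Chac1, Ddah1, Mfsd2a, Fam43a, Fer1l4 and Crisp3, with SDs of 1.04 to 1.46. Fabp2, an intestinal fatty acid carrier, had the same split with an SD of 0.91, at 2.81, 4.47, 2.69 and 4.13. In the 4 genes of the group with a further detected probe, Aqp4, Ang3, Slc9a3 and Ddah1, that probe had an SD of 0.85 to 1.96 and the same highest array. The goblet markers other than Retnlb moved far less: Muc2 and Spink4 spanned 0.63 and 0.52 log2 units from lowest to highest array, against 7.08 for Retnlb. Over all detected genes, 16.2% had both of arrays 104 and 108 above both of 102 and 105.

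The opposite pattern, high on arrays 102 and 105, held 12 genes of SD 1 or more. S100g, calbindin-D9k, which carries calcium through the epithelial cell under control of vitamin D, was at 3.21, -1.58, 3.17 and -0.80 (mm9 chrX:159399938-159399997), and its other probe at 2.92, -1.83, 2.82 and -1.0. Trpv6, the calcium channel of the luminal membrane, was at 1.82, -0.43, 0.99 and -0.34. Vdr, the vitamin D receptor, was at 3.86, 3.26, 3.61 and 3.67. Atp2b1, the pump that moves calcium out of the cell towards blood, was at 2.01, 1.32, 1.61 and 1.61. The carrier spanned 4.78 log2 units from lowest to highest array and the channel 2.26, against 0.60 for the receptor and 0.68 for the pump, and all 4 genes, a list made after the values were seen, were highest on array 102 and lowest on 104.

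The same pattern was seen in the 5′ Hoxd genes, homeobox factors that mark position along the body and whose 5′ members mark the hindmost gut. Hoxd12 was at -0.22, -4.53, -0.055 and -3.36 (mm9 chr2:74515664-74515723), and its neighbour Hoxd11 at -0.29, -3.88, -0.44 and -2.88, or -0.67, -4.26, -0.94 and -3.50 with its other probe. Hoxd10 was at -0.16, -2.18, -0.018 and -1.78. Hoxd13, the last gene of the cluster, was at 2.0, -1.04, 1.53 and 0.26. On each of these 4 genes both of arrays 102 and 105 lay above both of 104 and 108, as they did for 16.5% of all detected genes. Hoxd9 had the same order, -3.60, -6.35, -3.67 and -5.07, with array 104 not above background.

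Further along the cluster the spread was smaller. Hoxd8 was at -4.52, -4.80, -4.18 and -4.84. Hoxd4 was at -5.01, -5.21, -4.95 and -5.50. Arrays 102 and 105 were again above 104 and 108, but the span was 0.65 and 0.55 log2 units, against 4.47 for Hoxd12. Both genes lay near the lowest level that passed the background flag, -5.63 on array 102 and -6.28 on array 108. A larger fall on arrays 104 and 108 could thus hardly have been seen. Hoxd3 was above background on no array and Hoxd1 on fewer than 4. Posterior genes of the other clusters also spanned little: 0.37 for Hoxb13, the brightest Hox gene here (5.85 ± 0.20), 0.27 for Hoxa13, 0.28 for Hoxa10 and 0.19 for Hoxa9. Array 104 was the lowest for 6 of 10 detected posterior Hox genes, where 21.8% of all detected genes were lowest. Array 102 or 105 was the highest for 9 of the 10. Of all detected genes, 31.0% were highest on array 102 and 22.9% on array 105. The 10 include the 4 Hoxd genes of SD 1 or more given above. The labels do not give the site along the colon for any of the 4 pieces, and its part in these patterns was not tested.

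Of other genes of this pattern Defb45, a member of the beta-defensin family, was at 1.45, -0.13, 1.46 and -0.73. Angptl4, a secreted inhibitor of lipoprotein lipase, was at -0.31, -1.87, -0.84 and -2.75. S100a9, a calprotectin chain, was at -1.98, -3.92, -2.54 and -4.05. Its partner S100a8, with an SD of 0.89, was at -3.89, -5.63, -4.72 and -5.81, again with arrays 102 and 105 above the others. The neutrophil receptor Cxcr2 was above background on no array.

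Fat genes were high on array 104. Of 9 adipocyte markers 7 were detected, and 6 of the 7 were highest on array 104, where 15.3% of all detected genes were highest. The mean of the 7 was -2.35, 0.18, -1.41 and -1.38. Adipoq, the fat hormone adiponectin, was at -4.76, -0.48, -3.48 and -2.95. Cfd, the fat-secreted factor adipsin, was at -1.94, 2.41, -0.24 and -0.20. Array 104 lay above the other 3 and array 102 below them for each of these. Retn, resistin, was at -4.01, 0.26, -2.71 and -1.49, and its further probe had an SD of 1.77.

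Cidec, a protein of the lipid droplet, was at -4.55, -1.26, -3.24 and -3.19. Car3, a carbonic anhydrase abundant in fat, was at -2.19, 1.70, -0.96 and -1.01. Cyp2e1, a cytochrome of liver and fat, was at -4.08, -0.85, -3.35 and -3.07. All 3 were highest on array 104. Fabp4, a fatty acid carrier that endothelium shares, was at 0.80, 1.28, 0.92 and -0.11, a smaller step. Lep, leptin, was above background on no array and Plin1, a coat protein of the droplet, on 2.

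B cell genes were high on array 102. Ms4a1, which encodes CD20, was at -0.54, -3.96, -3.17 and -2.05. Fcmr, the receptor for IgM, was at -0.73, -4.74, -3.09 and -3.50. The group also held receptors of lymphoid follicles. Cr2, the complement receptor of B cells and follicular dendritic cells, was at -0.91, -4.37, -2.77 and -3.12. Cxcr5, which guides cells into follicles, was at -2.23, -5.33, -4.31 and -4.03. For these 4 genes array 102 lay 1.5 to 2.36 log2 units above the next array.

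Cd79a, a signalling chain of the B cell receptor, was at -0.043, -1.60, -1.39 and -1.54. Its partner Cd79b was at 0.84, -0.92, -0.79 and -0.72. Array 102 was again the highest for both. Of 13 detected markers of B and plasma cells 8 were highest on array 102, where 31.0% of all detected genes were highest. Plasma cell genes had another order: Jchain, given above, and Tnfrsf17, the receptor BCMA (-3.19, -2.80, -3.40 and -3.35), were highest on array 104. Cxcl13, the chemokine that draws B cells into follicles, was at -0.82, -1.90, -1.82 and -1.15, highest on array 102 by 0.33. Ccl4, a chemokine of activated lymphocytes and macrophages, was at -1.60, -5.60, -5.57 and -5.27. Klrg1, a receptor of NK and T cells, was at -2.42, -5.08, -5.62 and -5.35, and Tlr5, the receptor for flagellin, at -2.04, -4.92, -4.16 and -4.66. All 3 were well apart on array 102. Ighg, an immunoglobulin heavy chain gene, was at -2.21, 0.39, -2.27 and -3.43 and highest on array 104. Immunoglobulin genes are close in sequence, so a probe may read several.

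Some of the genes picked for an SD of 1 or more encode proteases and were lowest on array 108, and proteases as a group were not compared. Mmp13, a collagenase, was at -2.55, -3.45, -3.80 and -5.74. Mmp3, stromelysin, was at -3.33, -4.04, -3.75 and -5.83. Adamts4, which cleaves aggrecan, was at -3.10, -2.40, -2.90 and -5.51, and its further probe, above background on 3 arrays, had an SD of 1.57. Plau, the urokinase plasminogen activator, was at -3.23, -3.39, -3.56 and -5.45. For these 4, array 108 lay 1.79 to 2.42 log2 units below the next lowest. Their values on array 108 were near the lowest level that passed the background flag, -6.28 there and -5.63 on array 102. The size of these gaps thus rests on signals near background. With normexp correction and quantile normalization the SD of Adamts4 was 0.63, against 1.39.

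Sln, sarcolipin, a regulator of the calcium pump of muscle, was at -1.51, -1.91, -1.36 and -4.31. Prrx2, a homeobox factor of mesenchyme, was at -2.33, -2.98, -2.64 and -4.86. Svopl completed the named genes of this pattern, with an SD of 1.02, and 0.24 with its further probe.

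Genes high on array 105 formed no named list. The 8 with gene names were Ano7, Bicd1, Mup2, Arl10, Zfp957, Layn, Chst2 and Ank1, with SDs of 1.01 to 1.25, and of these Bicd1, Layn and Chst2 had SDs of 0.23 to 0.27 with a further probe. The muscle and cell cycle genes that were highest on array 105 had smaller spreads, with median SDs of 0.31 and 0.24.

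**Figure D4:**
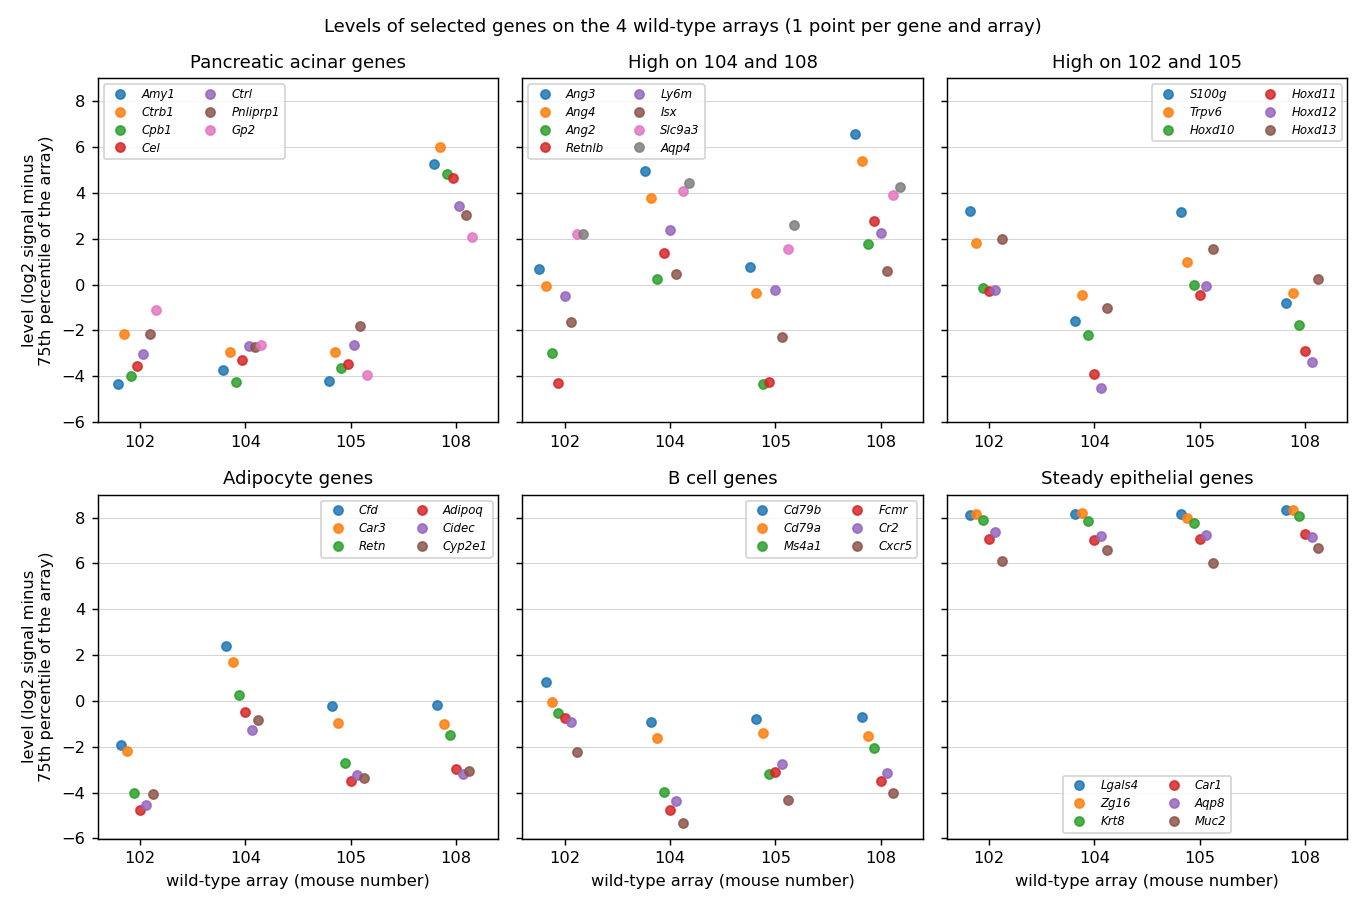
Levels of selected genes on the 4 wild-type arrays, 1 panel for each pattern, with 1 point per gene and array. Pancreatic enzymes stand out on array 108, Retnlb and the angiogenins are high on 104 and 108, S100g and Hoxd genes on 102 and 105, fat genes on 104 and B cell genes on 102, while 6 epithelial genes lie between 6.03, for Muc2 on array 105, and 8.31, for Zg16 on array 108.

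The largest group, 143 genes low on array 102, held GC-rich probes more often than detected genes at large. The median GC content of its probes was 55%, against 43.3% over all detected genes. Of its probes 69.2% had 50% or more, against 18.8% over all detected genes. The named gene of largest SD was Ccdc151, a gene of cilia, at -4.50, -0.50, 0.20 and 0.73. Basp1, a membrane protein of growing nerve ends, was at -1.48, 3.14, 2.91 and 3.38. Slc16a8, a lactate carrier known from the eye, was at -2.55, 1.79, 2.20 and 1.95. In each, array 102 lay far below the other 3. Serpina11, Evx2 and Capn11 followed with SDs of 1.98 to 2.18. Also among the 30 named genes of largest SD were Slc26a5, Inka1, Slc34a1, Nkx6-1 and Cacna1h, with SDs of 1.76 to 1.91. Several are known from organs other than gut, such as the prestin gene Slc26a5, from the inner ear, and the phosphate carrier gene Slc34a1, from the kidney.

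In 28 of the 143 genes a second probe was detected, its median SD was 0.51 against 1.17 for the first, and 13 of the 28 (46.4%) had the same highest array, against 52.1% over all detected genes with a second detected probe. The same array was lowest in 14 of the 28 (50%), against 52.6%. Among the other 157 variable genes 15 had a second detected probe, with a median SD of 1.11 against 1.14, and 13 of the 15 had the same highest array and 10 the same lowest. Serpina11 had an SD of 0.70 with its other probe and Cacna1h of 0.10. Without array 102 the number of genes with an SD of 1 or more was 169, of which 108 were among the 300.

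Across all 146 detected genes whose probe had 60% GC or more, the median difference from the mean of the other 3 arrays was -0.65 for array 102, 0.0061 for 104, 0.22 for 105 and 0.48 for 108. In the bins below 60% GC these medians lay between -0.12 and 0.11. With probes under 50% GC alone, 178 genes had an SD of 1 or more (1.16% of 15371), against 3.42% of the 3568 with 50% or more. What part GC content plays in the group was not tested.

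**Figure D5:**
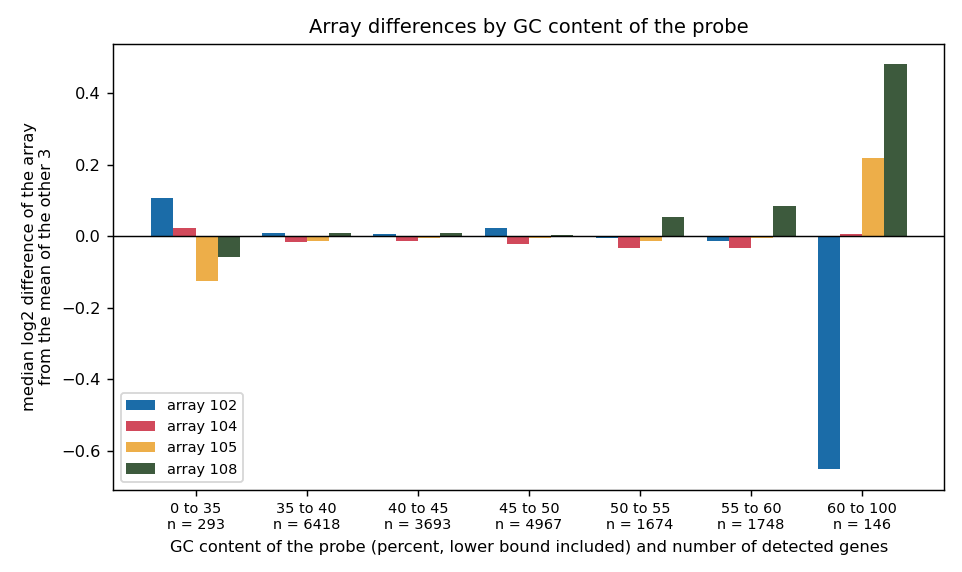
Median log2 difference of each array from the mean of the other 3, over detected genes grouped by the GC content of their probe. Bars are medians over genes and start at 0. In probes of 60% GC or more array 102 is at -0.65 and array 108 at 0.48, while every bin below 60% lies between -0.12 and 0.11.

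Some named genes were above background on a single array, and on the other 3 their values have no order. The stomach peptide Tff2, made by mucous neck cells and by Brunner glands of the duodenum, was at -5.61, -7.77, -7.62 and 0.13, above background on array 108 alone. Ccl3, a chemokine related to Ccl4, was above background on array 102 alone, at -2.20, -8.09, -7.97 and -8.37. Such single values rest on 1 spot and 1 mouse each.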

How the data were processed

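RNA of colorectum was labelled with Cy3 and hybridised to Agilent 60-mer arrays, design coordinates mm9. The authors deposited scanner intensities, background-subtracted by Agilent Feature Extraction 10.7.3.1 per the file headers, not normalized between arrays. The deposited value table holds those signals as a ratio to a constant of each array, as set against the scanner files. Its 8 columns of mutant samples were not used.

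Control and outlier spots were left out, spots of a probe averaged and log2 signals scaled to each array's 75th percentile (R 4.3.3, limma 3.58.1 and pandas 2.3.3). Of 39429 probes, 27508 were named through RefSeq accessions, 3544 by symbol, 177 by synonym, and 8200 kept the name in the file. A gene takes its brightest probe. Levels are means ± SD over 4 arrays, and SDs were checked on simulated data. Named genes were the 30 brightest, the first and brightest members and the most variable member of each list, the 30 of largest SD and the 5 steadiest bright ones. Other members were named after their values were seen. Members and lists were chosen with earlier results of these data known. Some named genes are not reported here. Replicate error rests on 1 array per mouse.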

Additional observations from a re-analysis of the deposited data

Results flagged for a closer look

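Of the genes named in the report, 229 were detected on all 4 arrays and looked at for 1 array far from the other 3, by the share of the gene's log2 range that the gap takes. Such an array was found in 30 (13.1%), against 6.17% of all detected genes. By chance about 1 group in 20 shows such a value, and many of the named genes were chosen for their spread. Values below are levels on the array named.

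Array 108 was far above the others in pancreatic enzymes: Amy1 (5.24), Cel (4.67), Cpb1 (4.82), Ctrb1 (5.99), Ctrl (3.41), Pnliprp1 (3.05) and Pnliprp2 (-0.57). It was also above them in COX3 (7.87), Rpl10 (7.86) and Saa1 (7.90), genes whose whole range was under 1 log2 unit. It was far below them in Cd68 (-0.017), Col1a2 (2.82), Dclk1 (-3.13) and Plau (-5.45): a macrophage marker, a collagen chain, a tuft cell marker and a protease. The Plau value lay near background.

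Array 102 was far above the others in Ccl4 (-1.60), Cd79a (-0.043), Cd79b (0.84) and Klrg1 (-2.42), of which the Cd79 genes belong to B cells, and far below them in Basp1 (-1.48), Inka1 (-4.48), Kit (0.46), Serpina11 (-2.88) and Slc16a8 (-2.55). Array 105 was far above the others in Acta2 (7.26), Ank1 (-2.47), Arl10 (-1.86) and Zfp957 (-1.74) and below them in CYTB (7.87), and array 104 above them in Dnajb1 (4.22) and below them in Rpl37a (7.70).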

How the results depend on the processing

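Levels and counts were recomputed with each array scaled to its median, with quantile normalization, with normexp correction and quantile normalization, with the deposited value table, with the mean of a gene's probes, with no filter on dim probes and without each array in turn. The number of detected genes and the number of lists in the upper part of the scale stayed within 1.5 times their values. The 100 brightest genes shared 70 to 100 members. Where recomputed, the array on which a list was most often highest was kept in 40 or 41 of 41 lists, with ties counted as kept. It changed for the respiratory chain, with median scaling and with normexp correction and quantile normalization. The array on which a list was most often lowest was not tallied in this way. Without 1 array, the detected share stood on 18977 to 19568 genes, against 18939 with 4, and 94 to 98 of the 100 brightest genes were shared.

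The count of genes with an SD of 1 or more depended most on the setting. From 300 it went to 91 with normexp correction and quantile normalization, of which 90 were among the 300, where the added offset of 50 signal units narrows the differences of dim genes by construction. It went to 1238 with no filter on dim probes, where more genes enter, and to 178 with probes under 50% GC, an alternative chosen after seeing the data, where fewer enter. Without 1 array it lay between 169, without array 102, and 427, without array 104. The SD of Amy1 was 3.81 with normexp correction, of Retnlb 2.72, of S100g 2.27, of Hoxd12 1.40, of Adipoq 1.04 and of Ccl4 0.97.

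Of 1052 SDs of named genes over 4 other processings, 178 changed by more than 1.5 times, 130 of them under normexp correction. Of 1052 levels, 375 moved by more than the gene's SD, 251 of them under median scaling, which raises every level on an array alike, by 3.47, 3.42, 3.35 and 3.37 on arrays 102, 104, 105 and 108. No paired analysis was possible because only 1 group is described. Signal over background limits what can be said of genes well above background on fewer than 4 arrays.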
